A study of Homo sapiens with 34 samples.

Results

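The list of m6Am peaks in HEK293T cells, a human embryonic kidney cell line, held 1652 spans, and 476 of them (28.8%) were longer than 5000 bp and overlapped no span of the hypoxia list. These 476 long spans were chosen by 2 measured properties, the listed start and end and the lack of an overlap of 1 bp or more with any of the 390 spans that the authors listed for hypoxia. Their length and their lack of hypoxia overlap are therefore a description. Being off that list means that a span was not called as changed by hypoxia, not that the RNA was unmodified in hypoxic cells. The 3 longest spans under the limit were those of ALKBH8 (4911 bp), COX10-AS1 (4943 bp) and LIN7C (4976 bp). The 3 shortest over it were those of NCBP2 (5021 bp), SIRT5 (5067 bp) and AKT1S1 (5142 bp). From the same list, 2 groups were set beside the 476. They were 953 spans of at most 5000 bp without hypoxia overlap (the short spans) and 68 long spans with hypoxia overlap.

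The list rests on wild-type, unstressed cells, with 2 input libraries, 2 of m7G-IP, and 2 each of m6A-IP without and with FTO. The RNA was fragmented, and in all but the input libraries the m7G antibody selected capped fragments. For the m6A-IP libraries, the recombinant demethylase FTO was then added, FTO (+), or left out, FTO (−), before the m6A antibody was applied. Per the methods, a listed peak was a 5′-UTR peak that overlapped an m7G-IP peak and was more enriched in m6A-IP than in m7G-IP. It was also called as different between FTO (−) and FTO (+), with an FTO (−) signal above 2 times its FTO (+) signal. The stress lists came from cells kept at 43 °C for 2 h with 6 h of recovery (heat shock, 74 spans) or in 1% oxygen for 24 h (hypoxia, 390 spans), each compared with untreated cells. The libraries labelled untreated are separate from the HEK293T libraries behind the main list. Libraries of PCIF1-KO cells and the CAGE library belong to the series but not to these lists. Each span is given as a chromosome, a start, an end and a gene name, with no strand, height or replicate, so neither sequencing depth nor replicate error can be attached to a span. Intervals below are 95% intervals over spans and cover counting error only, and no difference between groups was tested, since spans are not replicates.

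As background, m6Am is an N6-methyl group on a 2′-O-methylated adenosine, and it sits on the first transcribed base of an mRNA, next to the m7G cap. The enzyme PCIF1 writes it during transcription and FTO can remove it. A capped fragment of mature mRNA covers the first exon and, where that exon is short, continues into later exons after the intron has been spliced out. On the genome such a fragment spreads over the whole intron. The peak caller exomePeak works along annotated exons, so a span whose ends lie in different exons has its length set mostly by introns, and an end inside an exon follows from the method.

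To place each span, a host gene was looked for, meaning a gene with an annotated transcript start (Gencode release 44 on GRCh37, the build named hg19 by the authors) within 100 bp of the span end that lies 5′ on that gene's strand. Such a gene was found for 426 of the 476 long spans (89.5%, interval 86.4 to 91.9%), beside 822 of 953 short spans (86.3%, interval 83.9 to 88.3%) and 61 of 68 long spans with hypoxia overlap (89.7%, interval 80.2 to 94.9%). The 3 shares had overlapping intervals. The list was limited to 5′-UTR peaks, so an end near an annotated start follows in part from that selection, and these shares are a description. The start lay exactly on the end of the span in 146 of the 426 (34.3%), inside the span in 211 (49.5%) and outside it in 69 (16.2%). For 280 (65.7%) it was at most 20 bp away. The host was protein coding for 395 of the 426 and a lncRNA for 30, and 237 hosts were on the plus strand. In 16 spans more than 1 gene met the rule, and the gene with the listed name was then preferred.

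**Figure D1:**
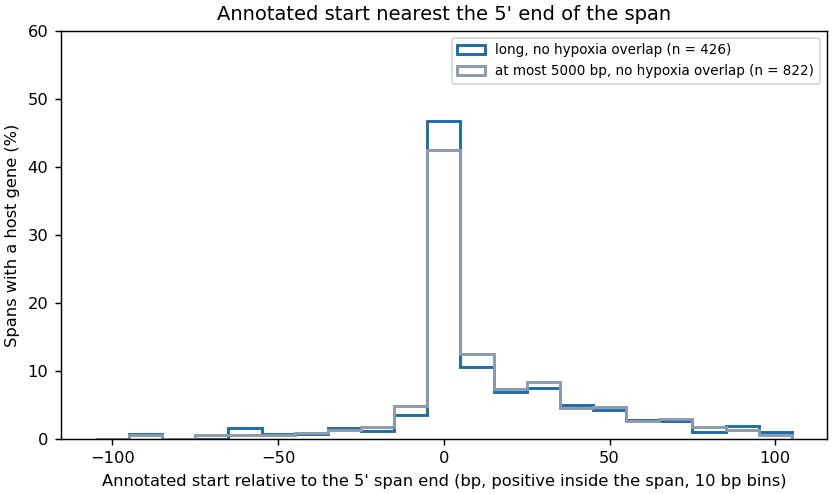
Position of the nearest annotated start relative to the 5′ end of the span (x axis, bp, positive inside the span) as a share of spans with a host gene (y axis, %), for 426 long spans (blue) and 822 short spans (grey). Both outlines peak in the bin at 0 and have a longer tail inside the span than outside it.

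The sequences at the host starts are shown because m6Am needs an adenosine as the first transcribed base. Each window holds 20 bases before the annotated start and 10 bases from it on, read 5′ to 3′ from the GRCh37 reference, with the first transcribed base in capitals. The first 4 begin with A after BC, where B is any base but A, and the next 4 do not.
PAX6 start, chr11:31839500-31839529, minus strand: aagttagcgcctgcctgagcAccctctttt
PRPF18 start, chr10:13628919-13628948, plus strand: tccctcatctctctcatcccAgcttccgcc
TMEM126A start, chr11:85358991-85359020, plus strand: ccgcgacccggcgcccgcccAcgccgcgtc
FOXP1 start, chr3:71247523-71247552, minus strand: ttgtatcaggtttttgagtcAtgatgcaag
PRDM16 start, chr1:2985727-2985756, plus strand: gcgaaggtgtccaaactgacAatgctgggg
RORA start, chr15:61521492-61521521, minus strand: tttttttttttttttttttgGtaccataga
ZEB1 start, chr10:31608034-31608063, plus strand: gtcgtaaagccgggagtgtcGtaaaccagg
SH3GL2 start, chr9:17579044-17579073, plus strand: ccgcatcacccgcccttgacGtcagagtgt
The start of PRDM16 is an A, but the base before its C is an A too, so it is not a BCA start.

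Over all 426 hosts, the first base was A in 172 (40.4%, interval 35.8 to 45.1%), G in 168 (39.4%), C in 68 and T in 18 (4.23%). Among the 822 short spans with a host, 390 had an A (47.4%, interval 44.1 to 50.9%), and among the 61 long spans with hypoxia overlap, 23 did (37.7%, interval 26.6 to 50.3%). Of 78569 annotated starts of protein-coding transcripts, 28385 had an A (36.1%). The interval of the long spans thus overlapped that of the short spans and also held the share of all coding starts. Where the annotated start fell exactly on the span end, 64 of 146 long spans (43.8%, interval 36.0 to 51.9%) and 131 of 258 short spans (50.8%, interval 44.7 to 56.8%) began with A. BCA, the initiator-like trinucleotide with its A as the first base, stood at 102 of the 426 starts (23.9%, interval 20.1 to 28.2%) and at 262 of the 822 of the short spans (31.9%, interval 28.8 to 35.1%). These intervals did not overlap. In the long spans with hypoxia overlap, BCA stood at 16 of 61 starts (26.2%). Their interval, 16.8 to 38.4%, held both of the others. Of the starts with an A alone, 102 of 172 in the long spans were BCA (59.3%, interval 51.8 to 66.4%). In the short spans 262 of 390 were (67.2%, interval 62.4 to 71.7%), so the intervals overlapped when only A starts were counted. Over all annotated coding starts the BCA share was 18.7% (14681 starts). The annotated start is a proxy for the base that carries the cap in these cells, and another start nearby may be the one used.

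Promoter composition was close in long and short spans. In the 300 bases from 250 before the start to 50 after it, the long spans had a median of 25 CG dinucleotides (interval 23 to 26) and 64.0% G+C (interval 63.0 to 65.7%). The short spans had 24 (interval 24 to 25) and 63.7% (interval 63.0 to 64.7%). The letters TATAAA, searched on the host's strand from 40 to 16 bases before the start, were found at 0 of the 426 starts, with an interval of up to 0.894%. They were found at 20 of 822 starts of the short spans (2.43%, interval 1.58 to 3.73%), at 0 of 61 starts of the long spans with hypoxia overlap and at 1183 of the 78569 coding starts (1.51%). No match says only that these letters are not in this window.

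The long spans were almost wholly intron. Their median length was 18106 bp (quartiles 9968 and 36992 bp, range 5021 to 550637 bp). One host transcript per span was used for exon counts, the one that starts at the span end, has an exon at the far end and holds the most exonic bases. That transcript covered a median of 354 exonic bases in the span (interval 333 to 373, quartiles 247 and 501), and intron made up a median of 97.8% of the span (lowest 60.3%). With the transcript that holds the fewest exonic bases instead, the median was 230 bases (interval 217 to 241). The short spans had a median length of 361 bp and a median of 241 exonic bases (interval 240 to 256) in 1 transcript, or 202 (interval 194 to 208) by the transcript with the fewest. The long spans with hypoxia overlap had 421 (interval 382 to 504), or 214 (interval 200 to 300) by the fewest. The genomic lengths of long and short spans differed by the choice of members. Their exonic lengths in 1 transcript differed less, although the intervals (333 to 373 and 240 to 256) did not overlap. The union of all exons of the host, which counts every annotated alternative exon in the intron as well, came to 748 bases in the long spans (interval 640 to 799), 270 in the short spans (interval 265 to 291) and 923 in the long spans with hypoxia overlap (interval 651 to 1425).

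**Figure D2:**
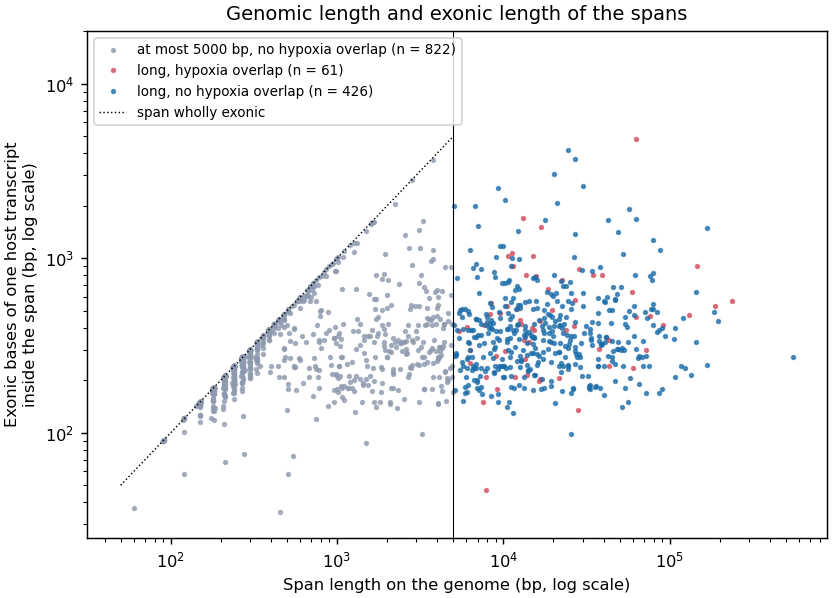
Length of each span on the genome (x axis, bp, log scale) against the exonic bases of 1 host transcript inside it (y axis, bp, log scale), 1 point per span. Short spans (grey) follow the dotted line of a wholly exonic span or fall under it, whereas the 426 long spans without hypoxia overlap (blue) and 61 with it (red) lie to the right of the limit of 5000 bp (vertical line) with medians of 354 and 421 exonic bases, beside 241 in the short spans.

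Among the members, exonic length was compared across classes of span length. The 113 members with a host of 5000 to 10000 bp had a median of 348 exonic bases (interval 287 to 388), the 125 of 10000 to 20000 bp had 361 (interval 331 to 389), the 125 of 20000 to 50000 bp had 342 (interval 321 to 392), and the 63 above 50000 bp had 377 (interval 302 to 452). All 4 intervals overlapped. The share with an A at the start was between 38.1 and 42.4% in these 4 length classes.

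The first intron held most of the bases of a typical long span. In 422 of the 426 spans a transcript starting at the span end had its whole first intron inside the span (99.1%, interval 97.6 to 99.6%), and in 419 the far end also lay in an exon of the host (98.4%, interval 96.6 to 99.2%). The same held for 327 of 822 short spans (39.8%, interval 36.5 to 43.2%) and 60 of 61 long spans with hypoxia overlap (98.4%, interval 91.3 to 99.7%). Length chose the members, so the contrast of long and short spans in these shares is a description. In the long spans the first intron had a median length of 9143 bp (interval 7754 to 10622, n = 425), and where it was held whole it made up a median of 78.4% of the span (quartiles 34.2 and 96.8%). In the long spans with hypoxia overlap that share had a median of 54.1% (interval 30.4 to 85.0%). The first intron was the longest intron crossed in 68.8% of the 426 (interval 64.2 to 73.0%). Exon 1 was short, with a median of 153 bases (interval 141 to 164) beside 312 (interval 291 to 333) in the short spans. Among the 287 short spans that also crossed an intron, exon 1 had a median of 159 bases (interval 143 to 173) and the first intron 1053 bp (interval 872 to 1220). Exon 1 was thus of similar length in long spans and in short spans that crossed an intron, and the first introns differed, as the choice by length requires.

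Of the 426 long spans, 154 (36.2%) crossed 1 intron, 152 (35.7%) crossed 2 and 116 (27.2%) crossed 3 or more, while 4 held no whole intron of the transcript used. The far end lay in exon 2 in 152 spans, in exon 3 in 150, in exon 4 in 79 and in exon 5 in 26. The span reached a median of 65 bases (interval 56 to 73, n = 417) into its last exon. Crossing 1 intron went with a median of 271 exonic bases (interval 244 to 298) and crossing 2 or more with 392 (interval 361 to 415). Of the 352 host transcripts with an annotated coding sequence, 300 (85.2%) had their coding start inside the span, and in 210 (59.7%) the coding start lay after exon 1, so that the first intron split the 5′ UTR. The short spans had values of 384 of 675 (56.9%) and 240 of 675 (35.6%). The long spans with hypoxia overlap had 35 of 50 (70.0%, interval 56.2 to 80.9%) and 37 of 50 (74.0%, interval 60.4 to 84.1%). Longer spans have more room for the coding start, so the first of these shares is a description.

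**Figure D3:**
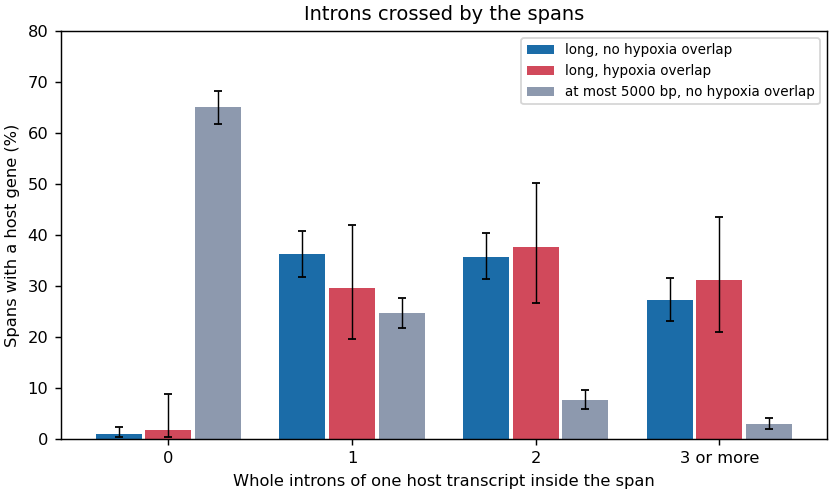
Share of spans with a host gene (y axis, %, with 95% Wilson intervals) by the number of whole introns of 1 host transcript inside the span (x axis). At least 1 intron was crossed by all but 4 of the 426 long spans (blue) and all but 1 of the 61 long spans with hypoxia overlap (red), and 65.1% of the 822 short spans (grey) crossed none.

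Nearly all introns crossed ran from GT to AG. Of 860 introns in the 426 transcripts, 848 did (98.6%, interval 97.6 to 99.2%) and 11 from GC to AG. Another 1, in ACACA, had other ends as annotated on GRCh37 (GT to TC). The ends of 4 very long first introns are shown to mark where the span leaves exon 1 and enters exon 2, with the splice-site bases in capitals.
RORA first intron, chr15:60970886-61521251, minus strand, first 15 bases: GTaggaggctggaga
RORA first intron, last 15 bases: tttcttctcttccAG
SH3GL2 first intron, chr9:17579286-17747063, plus strand, first 15 bases: GTaaggcgcgcggca
SH3GL2 first intron, last 15 bases: ggttattttctacAG
PRDM16 first intron, chr1:2985861-3102688, plus strand, first 15 bases: GTaagtctcccgcgc
PRDM16 first intron, last 15 bases: cgttgtctcctttAG
HMGN5 first intron, chrX:80377172-80457235, minus strand, first 15 bases: GTatgttgaaaaccc
HMGN5 first intron, last 15 bases: tttttttttttccAG

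The longest span, at chr15:60970866-61521502 on GRCh37, was 550637 bp long and was listed as RORA-AS2. Its start on the minus strand was 1 bp from the start of RORA, which encodes a retinoic acid receptor-related orphan receptor. It held the 250 bases of exon 1, an intron of 550366 bp and 20 bases of exon 2, which is 270 exonic bases in all. The antisense gene RORA-AS2 lies inside that intron on the other strand. SH3GL2, which encodes the endocytic protein endophilin A1, had the same structure on a smaller scale at chr9:17579041-17747086, with 222 bases of exon 1, an intron of 167778 bp and 23 bases of exon 2. ZEB1, a zinc finger repressor known from epithelial-mesenchymal transition, spanned 183295 bp at chr10:31608041-31791335 and crossed 3 introns, the first of 141744 bp, with 489 exonic bases. SOX5, a transcription factor of the SOX family, spanned 193971 bp and crossed 3 introns with 439 exonic bases. POU2F1, the octamer-binding factor Oct-1, spanned 144653 bp and crossed 4 introns with 638 exonic bases. BNC2, a zinc finger protein, spanned 142883 bp with 333 exonic bases, and PEAK1, a pseudokinase, spanned 133652 bp with 214. In each of these 7 genes fewer than 1% of the bases in the span were exonic in the transcript used.

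The span named TMEM161B-AS1 was 167504 bp long and began 1 bp from the start of the lncRNA now called TMEM161B-DT. It stood apart in having a first intron of only 440 bp, 44 annotated starts and 32242 exonic bases over all its transcripts. The remaining 2 of the 10 longest, ATG10 (188125 bp), an enzyme of autophagosome formation, and HECW2 (159125 bp), a ubiquitin ligase, had no start within 100 bp. The nearest was 1950 bp inside the ATG10 span and 120 bp outside the HECW2 span.

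**Figure D4:**
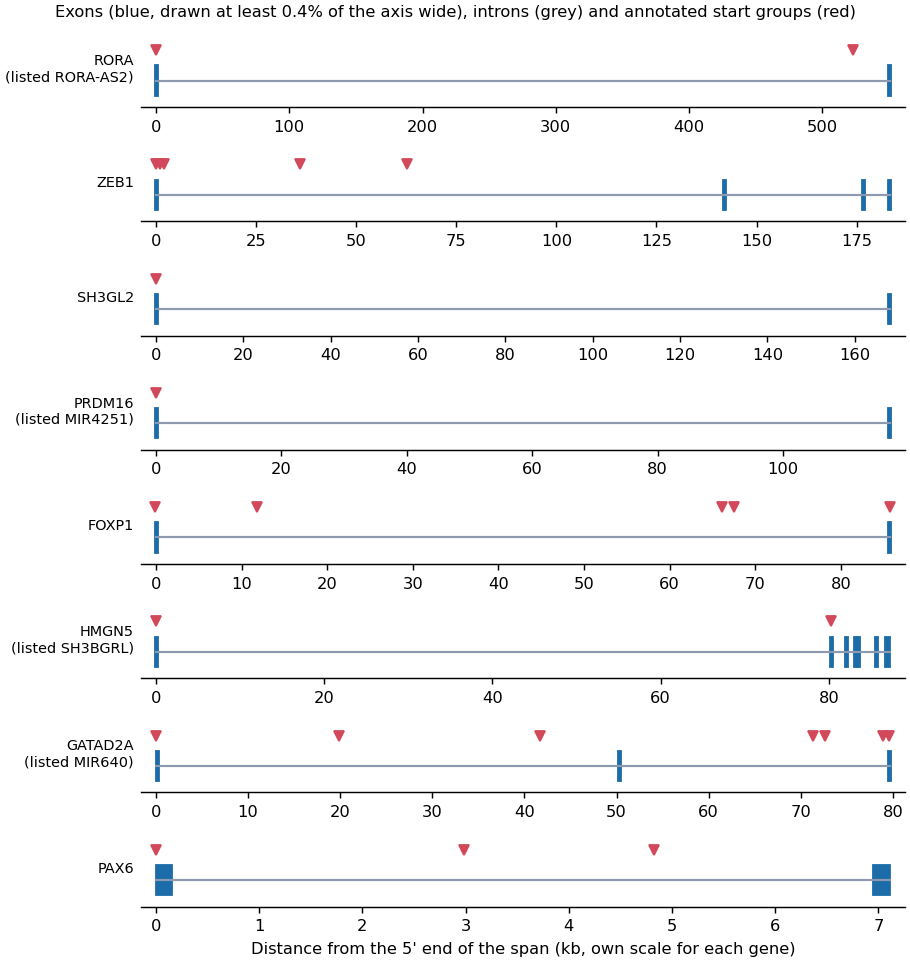
Structure of 8 long spans, with the distance from the 5′ end of the span on the x axis (kb, a separate scale for each gene), exons of 1 host transcript as blue boxes, introns as grey lines and groups of annotated starts as red triangles. RORA, SH3GL2, PRDM16, FOXP1 and PAX6 have 1 exon at each end, and FOXP1 and GATAD2A have a start group near the far end.

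Alternative starts inside the spans were counted as groups of annotated starts of the host, joined when at most 500 bp apart. Of the 426 long spans, 260 (61.0%, interval 56.3 to 65.5%) held 2 or more groups and 121 (28.4%) held 3 or more, beside 101 of 822 short spans (12.3%) with 2 or more. Among the 61 long spans with hypoxia overlap, 40 (65.6%) held 2 or more and 22 (36.1%) held 3 or more. Longer spans have more room for starts, so this is a description. Spans with 1 group began with A in 79 of 166 (47.6%, interval 40.1 to 55.2%) and those with several in 93 of 260 (35.8%, interval 30.2 to 41.8%), intervals that overlap. SEPTIN9, a cytoskeletal GTP-binding protein, had the most, with 13 groups in 120796 bp at chr17:75277492-75398287, where the list gives the name as 9-Sep, a date. EPB41L2, a membrane skeleton protein of the band 4.1 family, had 9 groups in 107042 bp. LINC00649 had 8 in 38331 bp, and TMEM161B-DT and GATAD2A, a subunit of the NuRD chromatin complex, had 7 each, the longest of the 4 members with 7.

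In 97 of the 426 spans (22.8%) a further start of the host lay within 500 bp of the far end. For these the outer span may join capped ends of 2 promoters or cover spliced fragments from 1 promoter. The deposited start and end cannot tell these apart. They included BNC2, whose last start group was 142574 bp into a span of 142883 bp, SEPTIN9 (120691 of 120796 bp), EPB41L2 (106837 of 107042 bp), FOXP1 (85697 of 85733 bp), GATAD2A (79537 of 79681 bp) and ACACA (79563 of 79570 bp). The 97 spans had a median of 333 exonic bases (interval 298 to 396). Such a further start was found in 19 of 61 long spans with hypoxia overlap (31.1%) and 68 of 822 short spans (8.27%).

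PAX6, a homeobox transcription factor of eye and brain development that the study describes, had a span of 7112 bp at chr11:31832398-31839509. The PAX6 start shown above lay exactly on its 5′ end. It crossed 1 intron of 6793 bp with 319 exonic bases, and 3 groups of starts fell inside it, at 0, 2985 and 4830 bp. The coding start lay in exon 4, beyond the span. PRR11, also described there, had a span of 29625 bp, and its nearest annotated start was 233 bp inside the span, so no host was assigned.

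The most introns were crossed by the spans of RDX, which encodes the actin-membrane linker radixin (10 introns in 48915 bp), HMGN5, a nucleosome-binding protein (6 in 87254 bp), ACACA, acetyl-CoA carboxylase 1 (6 in 79570 bp), PDE9A, a cGMP phosphodiesterase (5 in 79651 bp), and NSRP1, a splicing regulator (5 in 61330 bp). PDE9A and NSRP1 were the longest of the 7 members that crossed 5. The number depends on the transcript used. For RDX the transcript with the most exonic bases had 1413 and the one with the fewest had 358.

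The listed gene name was the host gene in 364 of the 426 long spans (85.4%, interval 81.8 to 88.5%), beside 748 of 822 short spans (91.0%, interval 88.8 to 92.8%) and 48 of 61 long spans with hypoxia overlap (78.7%, interval 66.9 to 87.1%). The authors took names from HOMER, which assigns the transcript start nearest the centre of a region. The listed gene had the annotated start nearest the centre in 336 of all 476 long spans (70.6%) and 838 of 953 short spans (87.9%). The host's name stood on 101 of 113 spans of up to 10000 bp (89.4%, interval 82.4 to 93.8%) and 47 of 63 (74.6%, interval 62.7 to 83.7%) above 50000 bp, with intervals that overlap. Of the 62 names that were not the host, 32 were other protein-coding genes, 12 were microRNAs, 8 were antisense or divergent transcripts, 5 were LOC or LINC genes and 3 were pseudogenes, while 1 was a date and 1 was blank. The host was protein coding in 49 of the 62, and 57 of the 62 hosts were named on no row of the list. Of these 62 names, 16 (25.8%) belonged to the gene with the annotated start nearest the centre. For 50 of the 62 names a start was annotated on the chromosome. In 23 of these 50 the named start was nearer the centre than any host start. Why the names differed was not tested. The named gene was on the strand opposite to the host in 38 of these 50, lay whole inside a host intron in 17, and in 25 was on the opposite strand with its start within 1000 bp of the host start.

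The longest such spans after RORA and SEPTIN9 were listed as MIR4251, DCAF17, LOC102723604, SH3BGRL, NCOA7-AS1 and MIR640. The span listed as MIR4251, at chr1:2985742-3102810, began 5 bp from a start of PRDM16, a zinc finger regulator of brown fat and haematopoietic genes, and held an intron of 116828 bp with 241 exonic bases. The one listed as DCAF17 began 61 bp from METTL8, a tRNA methyltransferase, and crossed 2 introns. That listed as LOC102723604 began 20 bp from GNG2, a G protein gamma subunit, and that listed as NCOA7-AS1 began 87 bp from NCOA7, a nuclear receptor coactivator. The span listed as MIR640, at chr19:19496612-19576292, began 23 bp from GATAD2A, and the microRNA gene at chr19:19545872-19545967 lies in the first intron of the transcript used. In all, 2 of the microRNAs are shown because their names stand on these spans although only host exons lie at the span ends. The seeds, bases 2 to 8, are in capitals, and the mature sequences are from RefSeq (GRCh38.p14).
hsa-miR-4251: cCUGAGAAaagggccaa
hsa-miR-640: aUGAUCCAggaaccugccucu
All 8 microRNAs with an annotated start on the chromosome lay whole inside an intron of the host.

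Heat shock, which the choice of members did not use, touched few of the long spans. Over the whole list 42 of 1652 spans (2.54%) overlapped a heat shock span, and 223 (13.5%) a hypoxia span, the share from which the choice was made. Among the 476 long spans 9 did so (1.89%, interval 0.998 to 3.55%), beside 20 of 953 short spans (2.10%, interval 1.36 to 3.22%) and 4 of 68 long spans with hypoxia overlap (5.88%, interval 2.31 to 14.2%). The share of the long spans was near the background.

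The 9 genes were of varied function. They were TMEM126A, a mitochondrial inner membrane protein, DCAF4, a receptor of CUL4 ubiquitin ligases, NOSIP, a ubiquitin ligase that binds nitric oxide synthase, NFU1, an iron-sulfur cluster protein, FOXP1, a forkhead transcription factor, ELOC, the elongin C subunit, PIGA, which starts GPI anchor synthesis, KANTR, whose host gene is annotated as protein coding, and the span listed as SH3BGRL with HMGN5 as host. A span of the heat shock list was called as changed against untreated cells, and the direction of that change was not used here. For TMEM126A the 2 lists shared the start, 85358963, and gave 6235 bp in the HEK293T list and 6202 bp in the heat shock list. FOXP1 gave 85733 and 85774 bp. NFU1 gave 13869 and 13868 bp, and PIGA 9576 and 9589 bp. NOSIP gave 20567 and 20583 bp, ELOC 16306 and 16353 bp, and DCAF4 13558 and 13905 bp. In these 7 genes the stress list held nearly the same span, introns included. The span with HMGN5 as host, chrX:80370188-80457441, was identical in both lists and was the only identical one. KANTR shared only its start, and its span was 48114 bp in the HEK293T list and 5322 bp in the heat shock list.

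**Figure D5:**
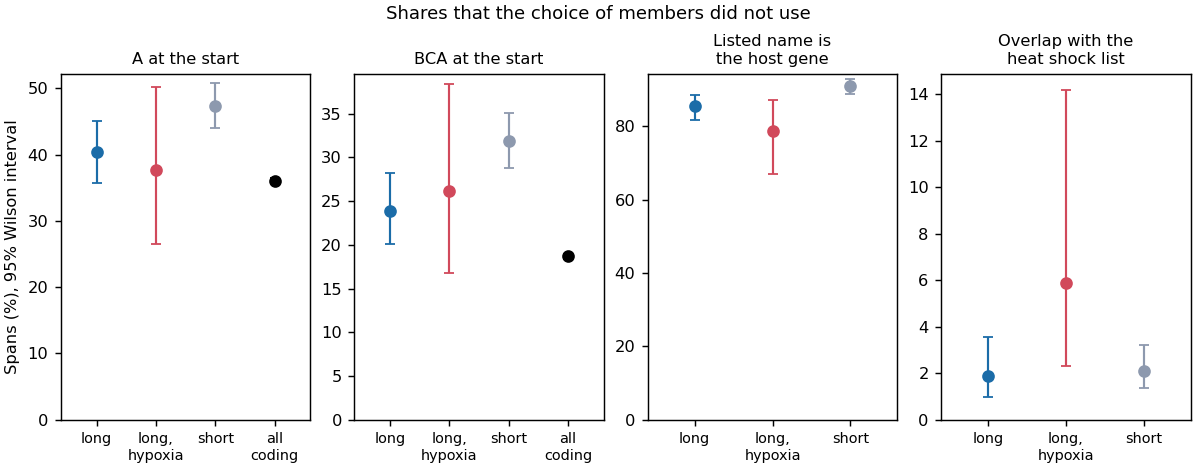
Share of spans (y axis, %, with 95% Wilson intervals) that began with A, began with BCA, carried the host gene's name or overlapped the heat shock list, for long spans without hypoxia overlap (blue, n = 426, or 476 for heat shock), long spans with it (red, n = 61 or 68) and short spans (grey, n = 822 or 953). Black points are all annotated coding starts, at 36.1% for A and 18.7% for BCA.

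A few long spans shared a listed name with another row or overlapped one. There were 16 whose name stood on more than 1 row and 16 that overlapped another row of the list. The names PRPF18 and ACIN1, a splicing factor and a splicing-linked nuclear protein, each stood on 2 rows. So did LYRM1, NAA38, an auxiliary subunit of the NatC acetyltransferase, and AKT1S1, the mTORC1 subunit PRAS40. A shared name was not always a shared gene. The short spans named PRPF18, ACIN1 and NAA38 had FRMD4A, C14orf119 and CYB5D1 as hosts. Of the spans named PRPF18 the long one was 10575 bp and began exactly on the PRPF18 start shown above. The long span named ACIN1 was 9240 bp and that named LYRM1 was 23669 bp.

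By listed name, the members were spread over the gene lists and symbol families counted, most of which held under 2% of them. Of 30 genes of the cap and m6A machinery, 2 were among the 476 names, EIF4E, the cap-binding translation factor (37944 bp, no host within 100 bp), and NCBP2, the small subunit of the nuclear cap-binding complex (5021 bp, 1 intron of 2993 bp). EIF4E2, a cap-binding relative of EIF4E, was the host of the span listed as TIGD1 (13717 bp). Of 24 genes for actin and proteins that bind or regulate it, 5 were listed. They were ACTN1 and ACTN4, the alpha-actinins, with first introns of 53279 and 52692 bp, RDX, ABI1 of the WAVE complex with 37441 bp, and CAPZA1, a capping protein subunit in a span of 34165 bp without host. The first list thus made up 0.420% of the long spans and the second 1.05%. The short spans held 2 names of the first list (0.210%) and 3 of the second (0.315%).

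Zinc finger names made up 21 of the 476 (4.41%, interval 2.90 to 6.65%) and 20 of the 953 short spans (2.10%, interval 1.36 to 3.22%), led among the long spans by ZEB1, ZMYM4 (89974 bp), PRDM2 (74419 bp) and ZNF148 (61959 bp). Solute carriers made up 7 (1.47%, interval 0.714 to 3.00%) and 26 (2.73%, interval 1.87 to 3.97%), led by SLC25A13 (44819 bp), SLC38A1 (29447 bp), SLC16A1 (27011 bp) and SLC6A15 (20845 bp). The intervals overlapped in both families, and 3 of the 68 long spans with hypoxia overlap had zinc finger names (4.41%). Names with ubiquitin-system prefixes were 12 (2.52%) and 12 (1.26%), led by UBE2L3 (72079 bp), UBE2K (39388 bp), UBE2N (31090 bp) and FBXO17 (25489 bp). Small GTPase prefixes gave 8 (1.68%) and 12 (1.26%), led by RAP1A (71580 bp) and RAB8B (55277 bp), although the prefix also took in RAPH1 (39999 bp), RANBP3 (36619 bp) and RABGAP1 (16098 bp, named after its value was seen), which are not GTPases.

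Kinesin, dynein and tubulin names were 4 (0.840%) and 6 (0.630%), namely KIF2A (41044 bp), KIFAP3 (19330 bp), KIF27 (6036 bp) and DYNC1I2 (5380 bp). Kinase prefixes gave 6 (1.26%) and 12 (1.26%), led by PKN2-AS1 with PKN2 as host (76133 bp), CDKN2B, a kinase inhibitor, with the lncRNA CDKN2B-AS1 as host (52040 bp), STK26 (40232 bp) and CDK18 (18649 bp). Names of the mitochondrial ribosome and respiratory chain were 5 (1.05%) and 11 (1.15%), led by MRPL22 (15364 bp), MRPS21 (14258 bp), ATP5PF with GABPA as host (10276 bp) and NDUFA8 (7425 bp). Cytosolic ribosomal protein genes were 0 of 476 (interval up to 0.801%) and 2 of 953, and their pseudogenes 0 and 1. Noncoding names, led by RORA-AS2, TMEM161B-AS1, MIR4251 and LOC101928068 (112267 bp), were 42 (8.82%, interval 6.59 to 11.7%) and 52 (5.46%, interval 4.19 to 7.09%). When the same name patterns were counted on host symbols, noncoding symbols stood on 17 of the 426 long spans with a host. They stood on 30 of the 822 short spans with a host. The patterns miss lncRNA hosts with other symbols. By annotation, 30 of the 426 and 51 of the 822 hosts were lncRNAs.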

How the data were processed

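The span starts and ends were used as deposited by the authors, in 3 lists (HEK293T, heat shock, hypoxia). Per the methods, the authors aligned reads to hg19 with HISAT2, called peaks with exomePeak (fold enrichment 3) and MACS2, and named them with HOMER 4.10. The deposited columns of stress ratios hold the authors' own comparisons and were not used, nor were values of the paper or its supplements. How replicates were combined is not given in the sources used here, and depth is unknown.

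Positions were read as GRCh37, numbered from 1. In that numbering 86 of the 476 long spans opened on an exon's first base, and 5 with a shift of 1. Shares have Wilson intervals and medians have binomial order-statistic intervals. Older symbols were matched through RefSeq synonyms. Matplotlib 3.10.9, pyfaidx 0.9.0.4, SciPy 1.17.1 and NumPy 2.4.6 were run under Python 3.11.15, and the span rules were tested on simulated data. The members and gene lists were chosen with earlier results of these data known.

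Named were the 10 longest spans, the 3 on each side of the limit, all with heat shock overlap, the first 5 that share a name, the 8 longest whose listed name did not match the host, the 5 with most start groups and the 5 with most introns, up to 4 per gene list, PAX6 and PRR11. The alternatives tried were other length limits, start distances, start groupings, transcripts and overlap rules.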

Additional observations from a re-analysis of the deposited data

How the results depend on the processing

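The number of long spans without hypoxia overlap was 476, and it lay between 356 and 601 under limits of 10000 and 2500 bp, a hypoxia overlap of at least 50% of both spans, and merging of overlapping spans. The share with an end at an annotated start, 89.5%, was 59.2% when the start had to lie within 20 bp, 97.9% within 500 bp and 81.3% with protein-coding transcripts alone. With those transcripts alone the median exonic length, 748 bases over all host exons, was 509 bases, and the share with several start groups, 61.0%, was 43.4%, since fewer transcripts were counted. The share overlapping the heat shock list, 1.89%, was 0.210% for spans identical in both lists. The other alternatives left each share or median inside its own interval. No paired analysis was possible because the lists hold 1 set of spans per condition and no replicate columns, and no result came from a test. Limits are that the outer span does not say which exons carried reads, that the annotated start is not the measured one, and that intervals cover counting error only.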

Other observations

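A few pairs of neighbouring spans were noticed after their values were seen. A span of 30022 bp at chr17:57784856-57814877 was listed as PTRH2 and had VMP1 as its host, and the span of 10235 bp at chr17:57774725-57784959 was listed as VMP1 and had PTRH2 as its host. The 2 genes start on opposite strands, and the spans overlap near those starts. Each span carried the name of the other gene, and the reason was not tested. The span transcript of VMP1 held 534 exonic bases and that of PTRH2 held 2162.

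The span listed as MIR454 ended at 57232800 on chromosome 17 and that of PRR11 began at 57232860, 59 bp further on. This was the only pair of members that lay within 1000 bp of each other without overlap, and neither had a host within 100 bp. Of the 50 members without a host, 40 had an annotated start within 500 bp of the fitting span end, and the median distance was 179 bp (interval 145 to 233, range 103 to 25457 bp).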
